A study of Homo sapiens with 20 samples.

Results

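Peaks of N6-methyladenosine (m6A) in RNA were examined in 9 genes that control p53 or are switched on by it: MDM2, MDM4, PPM1D, CDKN1A, GADD45A, GADD45B, SESN2, TP53INP1 and ZMAT3. Members of this set were chosen by name, with earlier results of these data known. A peak was counted for a gene when its summit, the base of strongest enrichment, lay in an exon of that gene (GENCODE, genome build hg38). Of 231465 peaks in 10 lists, 124 met this rule, and every one of the 9 genes had at least 1. Merging the 10 lists gave 43676 regions, of which 17 held these summits.

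The cells were T24, a human bladder cancer line sensitive to cisplatin, and T24R2, which was derived from T24 by serial exposure to cisplatin and was kept in medium with the drug. Both lines carry the genotype label WT and were sampled on day 3. T24R2 is 1 derived line, so resistance, the continued drug and any other change acquired during selection cannot be told apart. Each line had 5 methylated RNA immunoprecipitation (MeRIP) libraries, made from fragmented total RNA with the anti-m6A antibody NEB E1610, and 5 input libraries without antibody, 20 samples in all. The input libraries were used only in the authors' peak calling. No transcript levels are in the peak lists, so the labelled cell type could not be checked against expressed markers, and a transcript without m6A and a transcript too rare to give a peak cannot be told apart.

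m6A is placed on adenosines within the DRACH sequence (A, G or T, then A or G, then AC, then A, C or T) by a methyltransferase complex built around METTL3 and METTL14. In mRNA it is known to lie mostly near stop codons and in long internal or last exons, and reader proteins that bind it can alter how long a transcript lasts and how well it is translated. p53 is a transcription factor that responds to DNA damage such as that caused by cisplatin. MDM2 and MDM4 hold it in check, PPM1D reverses its activating phosphorylation, and its targets include genes that arrest the cell cycle, protect against oxidative stress or promote death.

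The lists held between 17203 and 23960 peaks except for 2 longer T24R2 lists, replicate 4 with 25603 and replicate 5 with 33120. The read depth behind them is unknown. Member peaks numbered between 11 and 13 in the T24 libraries and between 12 and 14 in the T24R2 libraries, so the longer lists did not add many peaks in these genes. Enrichment was compared as the percentile of a peak's fold enrichment (IP over local input) among all peaks of the same list, where 100 is the strongest peak.

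Of the 17 regions, 9 were called in all 10 libraries, in MDM2 (2 regions), MDM4, PPM1D, GADD45A (2 regions), GADD45B (2 regions) and TP53INP1. A further 6 were called in 2 to 9 libraries and 2 in 1 library, where 27.9% of all regions were seen in a single one. For comparison, 21.9% of all 43676 regions and 29.6% of the 29269 regions with an exonic summit were called in all 10 libraries. Equal numbers of T24 and T24R2 libraries had a call in 10 member regions, more T24R2 libraries in 3 (GADD45A, SESN2 and ZMAT3) and more T24 libraries in 4 (CDKN1A and TP53INP1). None of the 17 differed between lines by Fisher's exact test of 5 against 5 libraries (0 with an unadjusted p under 0.05, lowest p = 0.444), where 9.21% of all regions did before adjustment and 0 did after it. Only 2 of the member regions were called in 4 to 6 libraries, the range in which this test can give a p under 0.05, so it could detect little in this set.

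**Figure D1:**
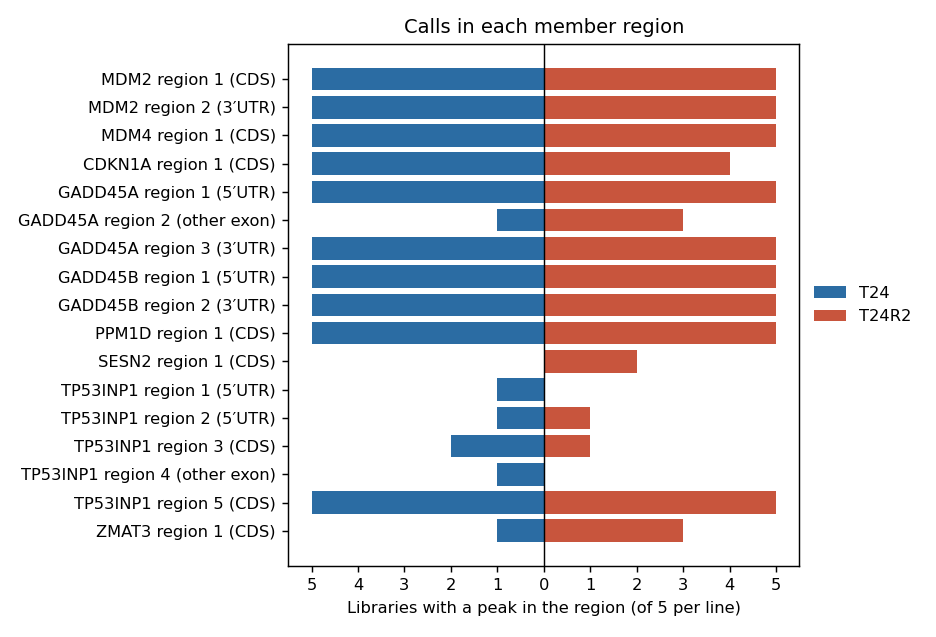
Number of libraries with a peak in each of the 17 regions (x axis, of 5 per line), with T24 bars to the left and T24R2 bars to the right. Bars reach 5 on both sides for the 9 regions called in all 10 libraries, and the regions of SESN2, ZMAT3 and most of those of TP53INP1 were called in few.

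The rank of fold enrichment was compared next. Among the 9 regions called in all 10 libraries, both MDM2 regions, the PPM1D region and the 3′UTR region of GADD45A ranked higher in T24R2 with an unadjusted p under 0.05 (two-sided exact permutation test over all assignments of the libraries to the lines). These 4 of 9 are 44.4%, against 13.9% of the 9577 regions called in all 10 libraries (10.9% higher in T24R2 and 3.04% lower). The 4 are not separate genes, because both MDM2 regions lie in the same exon. Summits of the MDM2 region in the 3′UTR also lie in exons of other genes. After Benjamini-Hochberg adjustment over the 9577 regions none of the 4 passed, and neither did any other region. The smallest p that 5 against 5 libraries can give is 0.00794. Mean rank was higher in T24R2 for 8 of the 9 member regions and for 64.4% of all regions, with a median difference of 8.12 percentile points over the members and 4.84 over all regions. When every list was cut to the length of the shortest, 7010 regions were left in all 10 libraries, and their median difference was 0.155. In that setting only 5 member regions could be ranked, and GADD45A could not be tested. Of these 5, 3 kept an unadjusted exact permutation p under 0.05, against 12.2% of the 7010 regions. They were MDM2 region 1 (49.5 points), MDM2 region 2 (23.6) and PPM1D (8.77). None passed after Benjamini-Hochberg adjustment of the exact permutation test (adjusted p = 0.225, 0.262 and 0.362).

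**Figure D2:**
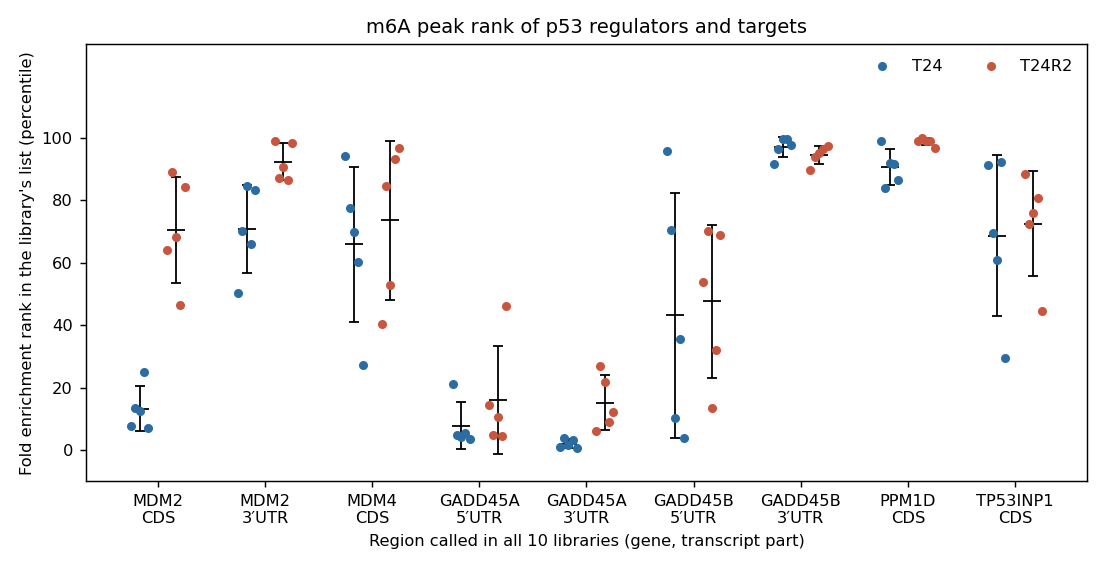
Within-list percentile of fold enrichment (y axis) for the 9 regions called in all 10 libraries (x axis), with 1 point per library, a horizontal line for the mean and bars for 1 SD (n = 5 per line). T24R2 points lie above all T24 points in both MDM2 regions and in the GADD45A 3′UTR, and the lines overlap in the other 6 regions.

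MDM2, the ubiquitin ligase that marks p53 for degradation and is itself a p53 target, had exactly 2 exonic peaks in each of the 10 libraries. The first lay in the coding part of its last exon, exon 11 of 11 (chr12:68839274-68839798, plus strand), with its median summit 267.5 nt before the stop codon. The second lay far into the 3′UTR of the same exon, which is 6271 nt long (chr12:68841715-68842731), with its median summit 2397.5 nt past the stop codon. Summits of the second region fell within 2364 to 2403 nt past the stop in all 10 libraries, and those of the first within 253 to 334 nt before it. Both MDM2 regions are shown by the DRACH motif nearest to the median summit, with 10 bases on each side and the motif in capitals (hg38, transcript strand), because they had the largest differences in fold enrichment percentile among the 9 regions. Ranked by −log10 q instead, GADD45A region 3 had the largest, at 40.4 points, and MDM2 region 1 had 28.4.
MDM2 region 1, chr12:68839539-68839563: aagaaagtgaAGACTattctcagcc
MDM2 region 2, chr12:68842225-68842249: tatttataatGAACAaattcaagaa

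By fold enrichment, the coding region of MDM2 ranked low in T24 and higher in T24R2. Its percentiles were 7.66, 13.6, 12.6, 25.1 and 7.14 in T24 replicates 1 to 5 and 64.1, 88.9, 68.2, 46.4 and 84.1 in T24R2 replicates 1 to 5. The lowest T24R2 library lay well above the highest T24 library. The means were 13.2 ± 7.23 and 70.3 ± 17.0 (SD, n = 5 each), a difference of 57.1 points (two-sided exact permutation p = 0.00794, adjusted p = 0.176). Only 16 of the 9577 regions (0.167%) had a difference this large in the same direction. By percentile of −log10 q the region did not rank low in T24, at 57.9, 59.8, 58.0, 76.2 and 41.5. In T24R2 it stood at 83.8, 88.3, 91.3, 79.0 and 92.8 by that rank, and the nearest values, 76.2 and 79.0, were close. The deposited fold enrichment ran from 3.52 to 5.04 in T24 and from 6.78 to 14.5 in T24R2, with means of 4.17 ± 0.592 and 9.76 ± 3.18. By limma, which pools the spread over all regions, the adjusted p was 0.0129 on the percentile and 0.0164 on log2 fold enrichment centred on each list's median, where the difference was 1.22. Over 16 alternative settings its adjusted p ran from 0.0129 to 0.296, and its unadjusted p was under 0.05 in all 16. With a replicate block in limma on the percentile, the adjusted p was 0.109 and no longer passed.

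The 3′UTR region of MDM2 was already well enriched in T24 and ranked near the top of the T24R2 lists. Its percentiles were 50.2, 70.2, 84.6, 65.9 and 83.3 in T24 and 98.8, 87.2, 90.7, 86.6 and 98.3 in T24R2. Again no T24R2 library overlapped the T24 range, although the nearest values, 84.6 and 86.6, were close. The means were 70.8 ± 14.1 and 92.3 ± 5.89, a difference of 21.5 points (two-sided exact permutation p = 0.00794, adjusted p = 0.176), and 13.8% of all regions had a difference at least as large. By percentile of −log10 q, where this region already stood near the top in T24, the difference was 3.80 points (exact permutation p = 0.00794, adjusted p = 0.126). Groups without overlap were found in 3.63% of all regions with T24R2 higher and in 0.867% with T24R2 lower. The lists carry no strand, and the summits of the second MDM2 region also lie in an exon of CPM, a carboxypeptidase gene on the opposite strand, and in a processed pseudogene, ENSG00000256664, on the same strand. Enrichment at this second region therefore cannot be assigned to MDM2 alone, whereas no other annotated gene has an exon at the summits of the first.

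MDM4, the MDM2 relative that binds p53 and blocks its activity, had a single exonic peak in every library. It lay in the coding part of the last of 11 exons (chr1:204549062-204550037, plus strand), 160.5 nt before the stop codon by the median summit, in an exon of 9008 nt. Its percentiles were 94.2, 77.4, 69.8, 60.3 and 27.4 in T24 and 40.3, 84.6, 52.9, 93.3 and 96.8 in T24R2. The lines overlapped over most of their range. The means were 65.8 ± 24.8 and 73.6 ± 25.4 (SD, n = 5 each), a difference of 7.76 points (exact permutation p = 0.643), which was -1.85 without T24 replicate 5.

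PPM1D, the phosphatase Wip1 that switches off p53 and the kinases of the damage response, also had a single exonic peak in every library. It lay in the coding part of its last exon, exon 6 of 6 (chr17:60662984-60663742, plus strand), 212.5 nt before the stop codon. Its percentiles were 99.1, 84.0, 91.8, 91.5 and 86.4 in T24 and 99.0, 99.8, 98.9, 99.0 and 96.7 in T24R2. This was among the strongest peaks of each T24R2 list, and 1 T24 library, replicate 1, lay within the T24R2 range. The means were 90.6 ± 5.80 and 98.7 ± 1.15, a difference of 8.12 points (exact permutation p = 0.0397, adjusted p = 0.315). Its unadjusted p was 0.0556 without T24R2 replicate 2 and 0.173 by limma on the percentile, and 41% of all regions had a difference at least as large. MDM4 and PPM1D share with MDM2 region 1 a place shortly before the stop codon in the last exon, and their nearest motifs are shown for comparison with it.
MDM4 region 1, chr1:204549526-204549550: atgtgagaaaAGACCacgagacggg
PPM1D region 1, chr17:60663320-60663344: cccctccaacAAACTttaaaaggac

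GADD45A, a damage-inducible protein that takes part in arrest and repair, carried peaks at both ends of its transcript. One region lay in the 5′UTR of exon 1 (chr1:67685186-67685627, plus strand), with the median summit 23 nt before the start codon, and another in the 3′UTR of exon 4 (chr1:67687630-67688109), 143.5 nt past the stop codon. Both were called in all 10 libraries. Region 2 of the gene (chr1:67685829-67686039) was called in 1 library of T24 and 3 of T24R2 (p = 0.524, Fisher's exact test), and 3 of its 4 summits lay in an exon that is not in the representative transcript.

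By fold enrichment, both end regions of GADD45A ranked low in most lists. The 3′UTR region was at 0.900, 3.96, 1.49, 3.12 and 0.539 in T24, among the lowest peaks by this rank. In T24R2 it was at 6.03, 26.9, 21.8, 8.82 and 12.3. Every T24R2 library was above every T24 library. The means were 2.00 ± 1.48 and 15.2 ± 8.86 (SD, n = 5 each), a difference of 13.2 points (exact permutation p = 0.00794, adjusted p = 0.176), and 28% of all regions had a difference at least as large. Its unadjusted p was 0.0538 by limma on the percentile. By percentile of −log10 q this region stood higher, at 38.8, 47.8, 24.2, 61.8 and 9.02 in T24. In T24R2 it stood at 65.1, 89.4, 80.2, 77.4 and 71.5 by that rank. By fold enrichment, the 5′UTR region was at 21.1, 4.85, 4.22, 5.42 and 3.44 in T24 and 14.4, 4.82, 10.6, 4.44 and 46.1 in T24R2. Those ranges overlapped, with means of 7.81 ± 7.47 and 16.1 ± 17.3 (exact permutation p = 0.444).

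GADD45B, a relative of GADD45A with a similar role in stress signalling, was covered by peaks over most of its length. Its first region (chr19:2476105-2476623, plus strand) had 7 summits in the 5′UTR and 3 in the coding sequence. Its second (chr19:2476829-2478334) was 1506 bp wide and held 19 summits, of which 10 lay in the 3′UTR, 6 in the coding sequence and 3 outside the representative transcript. The median summit of the second region was 376 nt past the stop codon, in exon 4 of 4.

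Between lines, the second GADD45B region was the only one of the 9 with a lower mean rank in T24R2. Its percentiles were 91.7, 96.5, 99.5, 99.6 and 97.5 in T24 and 89.6, 93.9, 95.2, 96.2 and 97.2 in T24R2. The lines overlapped near the top of the scale, with means of 97.0 ± 3.22 and 94.4 ± 2.96, a difference of -2.54 points (exact permutation p = 0.222). With the mean over the peaks of the region in place of the strongest one the difference was 6.19. The first region had the widest spread of the set, at 95.6, 70.4, 10.4, 35.5 and 3.77 in T24 and 53.6, 70.1, 13.5, 32.1 and 68.8 in T24R2. Its mean difference of 4.52 points was small beside SDs of 39.3 and 24.4 (exact permutation p = 0.833). The motifs of the GADD45 regions are shown to place the peaks at either end of these short transcripts. The motif in GADD45A region 1 overlaps the start codon, with its central A 3 nt after the first base of that codon.
GADD45A region 1, chr1:67685486-67685510: gtttgcaataTGACTttggaggaat
GADD45A region 2, chr1:67685988-67686012: ggggctgacgGGACCcctcgccctt
GADD45A region 3, chr1:67687927-67687951: cggagatagaTGACTttgcagatgg
GADD45B region 1, chr19:2476306-2476330: ttctccctggGGACTgccgtggagc
GADD45B region 2, chr19:2477960-2477984: ggagtgagacTGACTgcaagcccca

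CDKN1A encodes p21, the cyclin-dependent kinase inhibitor through which p53 arrests the cell cycle. It had 1 region, in the coding sequence of exon 2 of 3 (chr6:36684102-36684560, plus strand), with a call in all 5 T24 libraries and in 4 of T24R2 (p = 1, Fisher's exact test). Summits were scattered over it, from 422 to 56 nt before the stop codon with a median of 186. Its percentiles were 5.29, 13.9, 49.4, 45.5 and 7.88 in T24, and 14.0, 43.9, 14.0 and 53.4 in T24R2 replicates 2 to 5. The values of the lines overlapped, and T24R2 replicate 1 had no call. The number of calls depended on which peaks were kept. With lists of equal length there were 4 calls in T24 and 0 in T24R2 (unadjusted p = 0.0476, Fisher's exact test), with a −log10 q of at least 5 there were 4 and 2, and with a fold enrichment of at least 4 there were 3 and 4.

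SESN2, a sestrin that limits oxidative stress and growth signalling, had a peak in 0 libraries of T24 and 2 of T24R2 (p = 0.444, Fisher's exact test). Those summits lay 19 nt before and 38 nt past the stop codon, in exon 10 of 10 (chr1:28280701-28281001, plus strand), and ranked at 28.3 in T24R2 replicate 2 and 40.4 in replicate 5. ZMAT3, an RNA-binding zinc finger protein induced by p53, had a peak in 1 library of T24 and 3 of T24R2 (p = 0.524, Fisher's exact test), in the coding part of exon 2 of 6 (chr3:179067476-179067671, minus strand). It ranked at 76.7 in T24 replicate 3 and at 66.1, 64.1 and 22.6 in T24R2 replicates 2, 3 and 5. The motifs of the genes with unequal numbers of calls are shown next.
CDKN1A region 1, chr6:36684402-36684426: ctgctgcaggGGACAgcagaggaag
SESN2 region 1, chr1:28280803-28280827: ctcctgagcaGGACCtgggcccggt
ZMAT3 region 1 (minus strand), chr3:179067522-179067546: cctgtactgcAAACTctgcaatgtc

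TP53INP1, a target that promotes cell death and autophagy, lies on the minus strand of chromosome 8 and had 5 regions. The one called in all 10 libraries (94930494 to 94930787) lay in the coding sequence at the start of its last exon, exon 4 of 4, with the median summit 80.5 nt into that exon and 167.5 nt before the stop codon. Its percentiles were 91.1, 69.6, 60.9, 92.1 and 29.4 in T24 and 88.5, 72.5, 75.9, 80.8 and 44.4 in T24R2. In both lines replicate 5 was lowest, and the means of 68.6 ± 25.8 and 72.4 ± 16.8 differed by 3.79 points (exact permutation p = 0.770). Its other 4 regions lay upstream and were sparse, with 1 call in T24 for the first, 1 in each line for the second, 2 in T24 and 1 in T24R2 for the next and 1 in T24 for the last. The single peak of the first also lay in an exon of NDUFAF6 on the opposite strand. Their percentiles lay between 26.5 and 60.6.

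In the order of mean percentiles, GADD45B region 2 (97.0) led in T24, followed by PPM1D (90.6), MDM2 region 2 (70.8), TP53INP1 (68.6), MDM4 (65.8), GADD45B region 1 (43.1), MDM2 region 1 (13.2), GADD45A region 1 (7.81) and GADD45A region 3 (2.00). In T24R2 the order was PPM1D (98.7), GADD45B region 2 (94.4), MDM2 region 2 (92.3), MDM4 (73.6), TP53INP1 (72.4), MDM2 region 1 (70.3), GADD45B region 1 (47.6), GADD45A region 1 (16.1) and GADD45A region 3 (15.2). Gaps between neighbours were mostly smaller than the larger of their SDs. The exceptions in T24 were those below GADD45B region 2 and below PPM1D, and in T24R2 those below PPM1D and below GADD45B region 1. By this rank of fold enrichment, the MDM2 coding region stood with the GADD45A peaks in T24 and beside MDM4 and TP53INP1 in T24R2.

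The places of the peaks on the transcripts were compared with those of other coding genes. Of the 9 member regions called in all 10 libraries, 4 (44.4%) had their median summit in the coding part of the last exon, each within 400 nt before the stop codon, 3 (33.3%) lay in a 3′UTR and 2 (22.2%) in a 5′UTR. Over 7868 gene regions of all coding genes these places held 23.1%, 34.5% and 5.92%, and the stretch of 400 nt before the stop held 19%. None of the 9 lay in the coding part of another exon, where 36.6% of all gene regions did. MDM2, MDM4, PPM1D and TP53INP1 thus shared a peak just upstream of the stop codon. Within the span of the 9 genes only 2 intronic regions were called, in TP53INP1 in 1 T24R2 library and in ZMAT3 in 1 T24 library, the former within the second TP53INP1 region, which also held the exonic summit of 1 T24 library.

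**Figure D3:**
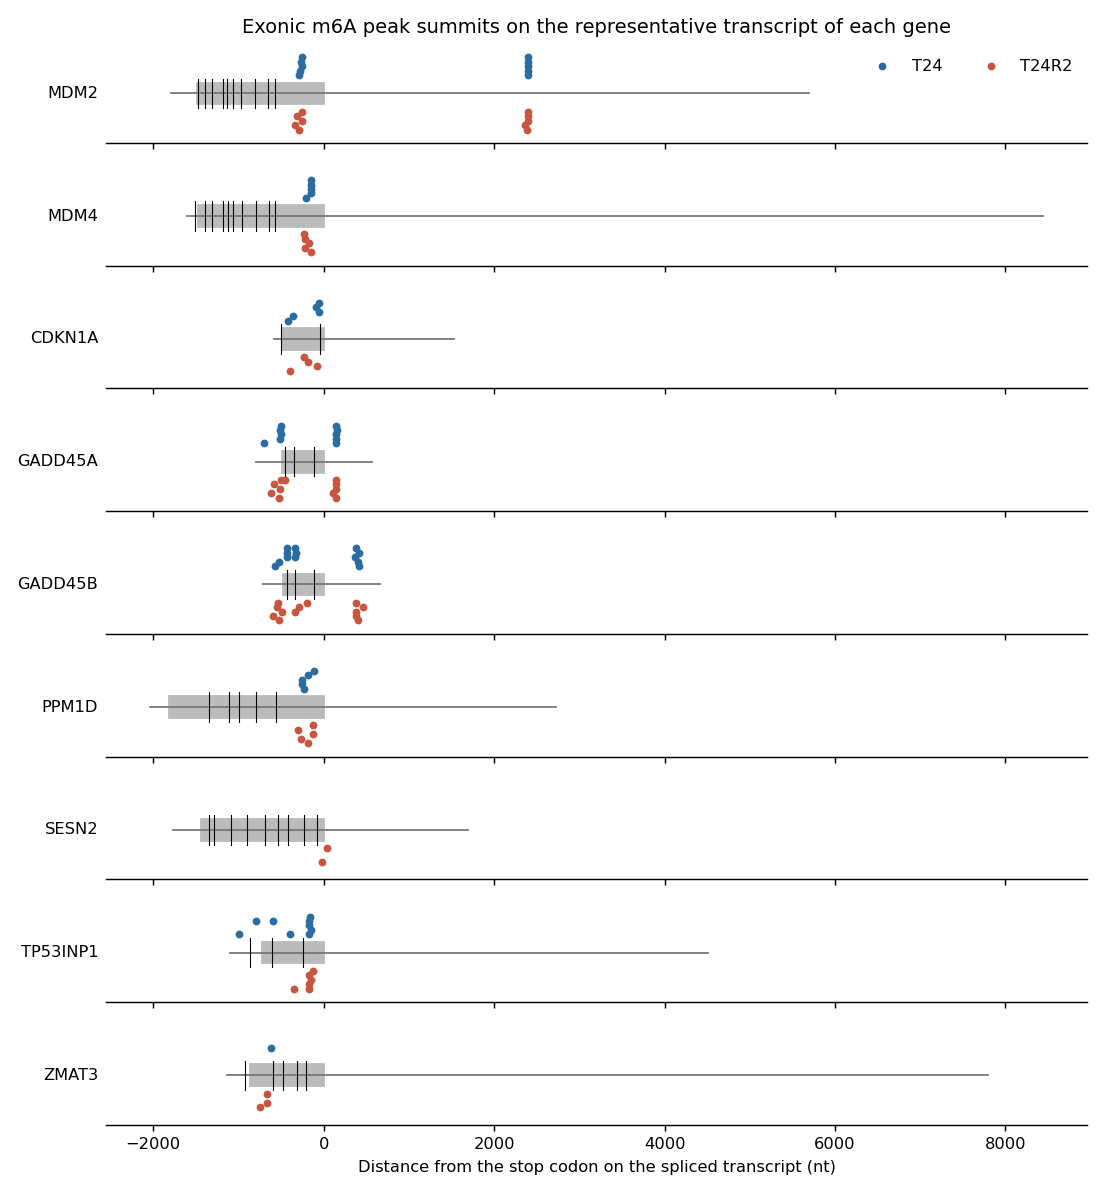
Each panel shows the representative spliced transcript of a gene, with distance from the stop codon in nt (x axis), the coding sequence as a grey box, exon junctions as vertical lines, and 1 point per peak summit (T24 above, T24R2 below). Summits of both lines lie together in the 2 clusters of MDM2 and in the clusters before the stop codon of MDM4, PPM1D and TP53INP1, while SESN2 has summits in T24R2 only.

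DRACH was found on the sense strand within 50 nt of 116 of the 124 member summits, 93.6 ± 9.04% of summits per library (SD, n = 10 libraries), against 81.4 ± 8.28% on the opposite strand of these windows. Over the 165758 exonic peaks of genes on 1 strand the shares were 90.6% and 71.6%. In the members the sense share was the higher one in 8 of the 10 libraries and the lower one in T24 replicate 1 and T24R2 replicate 4, and the difference between strands was not tested. The narrower motif GGAC was near 42.2% of member summits per library (48.0% over all exonic peaks), with 26.5% on the antisense strand. Of the 12 motifs printed above, 4 were of the GGAC form, and each motif lay 1 to 28 nt from its median summit. A match is a description of the sequence and does not locate the methylated base.

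The number of exonic peaks per gene did not separate the lines. MDM2 had 2 peaks, and MDM4 and PPM1D had 1, in all 10 libraries. GADD45A had 2.20 ± 0.447 in T24 and 2.60 ± 0.548 in T24R2 (exact permutation p = 0.524), and TP53INP1 had 3, 1, 2, 3 and 1 in T24 and 2, 1, 1, 1 and 1 in T24R2 (exact permutation p = 0.286). None of the 9 genes had an unadjusted p under 0.05, against 13.9% of the 13976 genes with an exonic peak (10.4% with more peaks in T24R2) and 0 after adjustment.

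The share of the transcript under peaks differed in 1 member before adjustment. For MDM4 it was 6.33%, 5.23%, 5.25%, 5.29% and 5.11% in T24 and 6.12%, 6.69%, 6.41%, 7.11% and 9.07% in T24R2. All T24R2 libraries but 1 were above the T24 range. The means were 5.44 ± 0.498% and 7.08 ± 1.17% of the 10050 nt transcript (exact permutation p = 0.0159, adjusted p = 0.0727). In all genes with an exonic peak, 34.2% had an unadjusted p under 0.05, with 30.4% higher and 3.80% lower in T24R2, so 1 of 9 is no excess, and 16.6% passed after adjustment.

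Coverage in the other members overlapped between lines. MDM2 was covered over 12.8 ± 1.09% in T24 and 15.3 ± 2.51% in T24R2 (exact permutation p = 0.0794), with T24R2 replicate 1 the lowest of all 10 at 11.2%. Without that library the difference was 3.62 points (exact permutation p = 0.00794). GADD45A was covered over 37.3 ± 8.09% and 46.4 ± 2.63% (exact permutation p = 0.0635), with T24 replicate 4 the highest at 51.0%, and the difference was 12.5 points without it (exact permutation p = 0.00794). GADD45B, the most covered member, had 83.9 ± 2.08% and 87.1 ± 5.34% of its transcript under peaks (exact permutation p = 0.294), and the difference was 5.08 points without T24R2 replicate 1 (exact permutation p = 0.0238). For MDM2, GADD45A and GADD45B, only the omission of the library furthest against the difference is given here. These unadjusted p-values are therefore picked ones, and the share of all genes under the same omissions is not given. With all libraries kept, that share was 34.2%. PPM1D had 12.0 ± 1.56% and 12.6 ± 0.941% (exact permutation p = 0.460). CDKN1A had 15.7 ± 4.14% and 12.8 ± 8.77%, TP53INP1 5.17 ± 3.73% and 3.58 ± 1.09%, SESN2 up to 5.00% and ZMAT3 up to 2.04%.

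**Figure D4:**
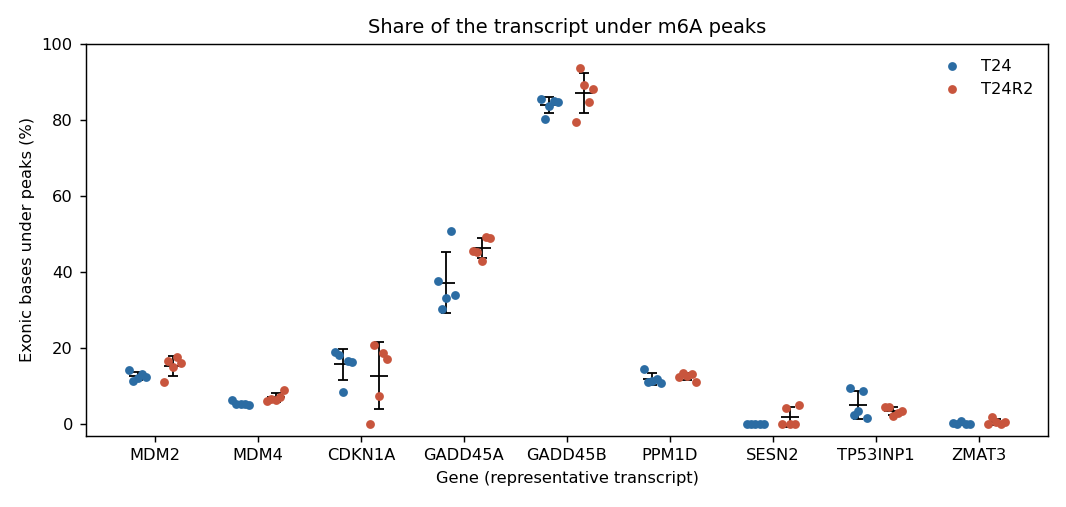
Percent of the exonic bases of each gene's representative transcript under peaks (y axis) for the 9 genes (x axis), with 1 point per library, a horizontal line for the mean and bars for 1 SD (n = 5 per line). GADD45B stands near 85% in both lines, GADD45A between 30.4% and 51.0%, and the other genes below 21%.

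A list of 54 other genes of the p53 pathway gives the setting for the 9. An exonic peak was found in 43 of them, in 122 regions, of which 38 were called in all 10 libraries. By rank, 9 of these 38 were higher and 1 was lower in T24R2 with an unadjusted exact permutation p under 0.05, with a median difference of 10.55 points, and none passed after adjustment over all regions. Over all regions 10.9% were higher and 3.04% lower before adjustment, with a median of 4.84. By role, the regions higher in T24R2 at the unadjusted threshold were 4 of 10 in death targets, 3 of 3 in secreted targets and 2 of 18 in the p53 family, its kinases and partners, where 1 was lower. None of the 5 in arrest and damage targets and none of the 2 in ligases and deubiquitinases of p53 passed it in either direction. These roles hold few regions, and the list was chosen with earlier results known. By presence, 6 of the 122 regions were called in more T24R2 libraries and 2 in more T24 libraries (Fisher's exact p under 0.05 before adjustment), against 7.11% and 2.09% of all regions.

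A region in TP73, which encodes the p53 relative p73, was called in all 5 libraries of T24 and 0 of T24R2 (chr1:3707533-3707752). Regions in TP53BP2 (chr1:223798254-223798673) and PPP1R13B (chr14:103734076-103734484), which encode the ASPP proteins that steer p53 towards death targets, were called in 0 libraries of T24 and all 5 of T24R2. Each had Fisher's exact p = 0.00794 and an adjusted p of 0.195. Such complete splits were 3 of the 122 pathway regions and 4.07% of all regions, and there were none among the 17 member regions. TP73, TP53BP2 and PPP1R13B each also had an exonic region called in all 10 libraries. That of TP73 (chr1:3732709-3734560) differed by -42.1 percentile points in T24R2 (exact permutation p = 0.00794, adjusted p = 0.176).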

How the data were processed

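MeRIP-seq peak lists of 5 T24 and 5 T24R2 IP libraries were used. Groups and replicate numbers came from the sample titles. Per the study's methods and the submitters' processing notes, the authors aligned reads to hg38 with STAR 2.7.0 and GENCODE 39, kept uniquely mapped reads without duplicates with SAMtools 1.10, and called peaks of IP over input in each library with MACS2 3.0.0a6 without a model and with an extension size of 100. The authors' fold enrichment of each peak is a ratio of IP over local input. The deposited −log10 p-value and −log10 q-value belong to the summit, and the deposited score is 10 times the −log10 q cut to a whole number. The lowest −log10 q was 2.00. The lists hold no read counts, so the depth is unknown, no counting interval is given, and the study's count tests were not run.

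The members and the list of other pathway genes were chosen with earlier results of these data known. Exons were those of every transcript in GENCODE 44, and positions used 1 representative transcript per gene (MANE Select where there is one). A library had a region when any of its peaks overlapped it, and its value was that of its strongest peak there. Merging the 10 lists gave back the authors' merged list exactly. Presence was compared by Fisher's exact test (two-sided), and ranks, numbers of peaks and covered bases by an exact permutation test (two-sided) over all assignments of libraries to lines, each adjusted by Benjamini-Hochberg over all regions or genes tested (scipy 1.17.1, numpy 2.4.6, pandas 2.3.3). The tests were tested on simulated data. Nothing states that the replicates came from separate cultures, so p-values measure only the spread between these libraries. All 9 members are named. Of the other pathway genes, those named have an exonic region called in 5 libraries of one line and 0 of the other, and 1 gene that the naming rule lists directly is not reported here. Sequences were read from hg38 with pysam 0.24.0 and samtools 1.23.1, with those of chromosome 8 left out. Alternatives were stricter peak filters, lists of equal length (the 17203 strongest peaks of each by −log10 q), other ranks, limma 3.58.1, a replicate block, other exon sets, another window and motif, and leaving out each library in turn.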

Additional observations from a re-analysis of the deposited data

Results flagged for a closer look

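In each group of 5 libraries, the gap between the highest or lowest library and its nearest neighbour was divided by the range of the group (Dixon's ratio, critical value 0.71). Chance would flag about 5% of groups, and 10 of 44 stood out, 5 of them in peak counts of a few whole numbers, where a single library that differs by 1 peak gives a ratio of 1.0.

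By fold enrichment percentile, GADD45A region 1 was highest in T24 replicate 1, at 21.1 against 5.42 in the next library (ratio 0.888), and in T24R2 replicate 5, at 46.1 against 14.4 (ratio 0.761). The PPM1D region was lowest in T24R2 replicate 5, at 96.7 against 98.9 (ratio 0.729). By share of the transcript under peaks, MDM4 was highest in T24 replicate 1, at 6.33% against 5.29% (ratio 0.853), and CDKN1A was lowest in T24 replicate 3, at 8.60% against 16.4% (ratio 0.755).

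By number of exonic peaks the ratio was 1.0 in 5 groups. GADD45A had 3 in T24 replicate 5 and 2 in the other T24 libraries, ZMAT3 had 1 in T24 replicate 3 and 0 in the others, CDKN1A had 0 in T24R2 replicate 1 and 1 in the others, GADD45B had 2 in T24R2 replicate 2 and 3 in the others, and TP53INP1 had 2 in T24R2 replicate 1 and 1 in the others.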

How the results depend on the processing

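Of 742 values recomputed under the alternatives, 704 were scored as the same. A difference was scored so when its sign did not turn and its p stayed on the same side of 0.05. Counts of members were scored by a fold limit instead, and the DRACH share by its SD. A difference of 0 in the main setting could not be scored as reversed. GADD45A region 3 calls thus counted as the same at a fold of at least 4, where the difference was 3.0. With lists of equal length, 1 member region (CDKN1A, -4.0 libraries) and 1 gene by peak number (CDKN1A, -0.8 peaks) passed 0.05, against 0 and 0, and 2 genes by covered bases (CDKN1A among them, at -12.5 points), against 1. By presence, 7.94% of all regions called in that setting passed. With all peaks kept, 13.9% of all genes passed by peak number and 34.2% by covered bases. The shares of all genes with lists of equal length are not given, so the gene counts of that setting have no like share beside them. With lists of equal length, GADD45A regions 1 and 3, GADD45B region 1 and TP53INP1 region 5 could not be ranked in every library. The 4 member regions past 0.05 by rank were 2 under limma on the percentile (both MDM2 regions), where 13.9% of all regions tested passed. They were 4 under limma on centred log2 fold enrichment (15.7% of all) and 4 without T24R2 replicate 5 (12.0% of all). When any 1 library was left out they were between 3 and 5 (11.4% to 14.2% of all). Same-numbered libraries correlated between -0.0304 and 0.111 in their deviations, with 1 of 5 pairs best with its own number, so the numbers do not pair them. With the replicate block, the count by rank was 2 (limma, where 13.7% of all regions tested passed). Presence, peak number and covered bases were tested by an exact permutation test over 32 swaps within pairs, whose smallest possible p is 0.0625. Their counts under 0.05 could therefore only be 0, and nothing can be read from them. For covered bases of MDM4 this exact permutation test gave p = 0.125. For the other pathway genes the count by rank was 7 instead of 10 under the same limma block. Covered bases gave 2 genes over the union of exons, and 1 to 3 when a library was left out. In the main setting 34.2% of all genes passed. The shares of all genes in these other settings are not given, so no excess can be read from these counts. DRACH was at 75.1% within 25 nt and GGAC at 42.2%. Directions reversed for CDKN1A calls at a fold of at least 4 (1.0) and for GADD45B region 2 by −log10 q (0.0164) and by the mean over peaks (6.19). Leaving out 1 library also reversed the difference of GADD45B region 1 (4 libraries, range -5.32 to 17.6), TP53INP1 region 5 (2 libraries, -6.01 to 10.8), MDM4 (without T24 replicate 5, -1.85 to 16.1) and CDKN1A covered bases (without T24R2 replicate 1, -4.92 to 0.276). The causes were not tested. Depth is unknown, so a missing call is not absence of m6A.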
